A study of Saccharomyces cerevisiae with 15 samples.

Results

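Transcript ratios of budding yeast after 1 h in arsenite were set against those after 30 min. Of the 15 two-colour arrays of the series, 9 entered this comparison by their titles, namely the 6 arrays at 1 h and the 3 arrays at 30 min. Both groups were wild-type Saccharomyces cerevisiae given 1.0 mM arsenite, As(III), the toxic trivalent form of arsenic, and the labels name no strain background. Each slide carried RNA of treated cells in one dye and RNA of untreated wild-type cells in the other. Treated RNA was in Cy5 on all 3 arrays at 30 min and on 1 h replicates 2, 4 and 5, and in Cy3 on 1 h replicates 1, 3 and 6. No label says that replicates came from different cultures, so a p-value here reflects only how far these samples lay apart, and that spread may be technical. Whether untreated cells were collected together with the treated ones is not stated either.

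Arsenite enters yeast largely through the glycerol channel Fps1, is pumped out by Arr3, and is moved into the vacuole by Ycf1 as a glutathione conjugate. It binds protein thiols and disturbs folding, and yeast is known to answer with the oxidative stress genes of Yap1, the chaperone genes of Hsf1, the sulfate pathway that feeds glutathione synthesis, and the proteasome genes of Rpn4. Genes for ribosomal proteins are commonly repressed under such stress.

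Values below are log2 ratios of treated over untreated cells, a direction that the dyes and the deposited signs make likely, relative to the median of the 5539 named genes on the same array. Across genes, which cannot be counted as independent replicates, the 6 arrays at 1 h correlated with each other at r of 0.722 to 0.894. Replicates 2 and 3 at 30 min correlated with r = 0.927, but replicate 1 with them only at 0.406 and 0.425, and 1 h replicate 4 correlated with 30 min replicates 2 and 3 at 0.866 and 0.863. Ratios of the brightest less the dimmest eighth of genes were 0.06 on 30 min replicate 1, down to -2.03 on the other two arrays at that time, and between -1.77 and -0.17 at 1 h. Centring matters here. Without it the log2 difference of the median gene, 1 h less 30 min, was -0.81 over the 3 Cy5 arrays at 1 h, which the fit with the dye term uses, and -0.24 over all 6, and the differences below are relative to that shift.

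Ratios of some oxidoreductase, chaperone and sulfur metabolism genes, such as GRE2, HSP42 and MET14, stood higher at 1 h than at 30 min. Those of most ribosomal protein genes stood lower, with a median difference of -1.46, but of only -0.47 without 30 min replicate 1. Few differences passed a test over all genes. In limma with a gene-specific dye term, whose difference equals the mean of the 3 Cy5 arrays at 1 h less the mean of the 3 arrays at 30 min, 0 of 5539 genes passed an adjusted p of 0.05 (Benjamini-Hochberg, two-sided). The smallest adjusted p was 0.348, and 286 genes (5.16%) had an unadjusted p under 0.05, of which 126 were higher (2.27% of all genes) and 160 lower (2.89%) at 1 h. Without the dye term, when all 6 arrays at 1 h are averaged, 21 genes (0.379%) were called higher and 5 (0.0903%) lower by limma at the same threshold, with 554 at an unadjusted p under 0.05. Counting arrays alone, 227 genes (4.10%) had all 6 arrays at 1 h above all 3 at 30 min and 99 (1.79%) had them all below. Only 15 genes were above in this way when arrays were not centred. Counts of list members with arrays apart, given below, are to be read against the shares of 4.10% and 1.79%. Differences below come from limma with the dye term, with its standard error, and none of them passed in that fit after adjustment over all genes. Those called higher without the dye term were AAD3, AAD6, AAD15, ALD4, ATG41, CUR1, GRE2, HCA4, LHS1, MET14 and MXR1. The others called higher were OYE3, REX3, RPN4, SPC34, SSN2, STR3, TSA2, YHR054C, YKL070W and YML131W. Called lower were GAB1, RBD2, RPL22A, RPL37A and RPS18B. The paragraphs below repeat this for only some of these genes.

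**Figure D1:**
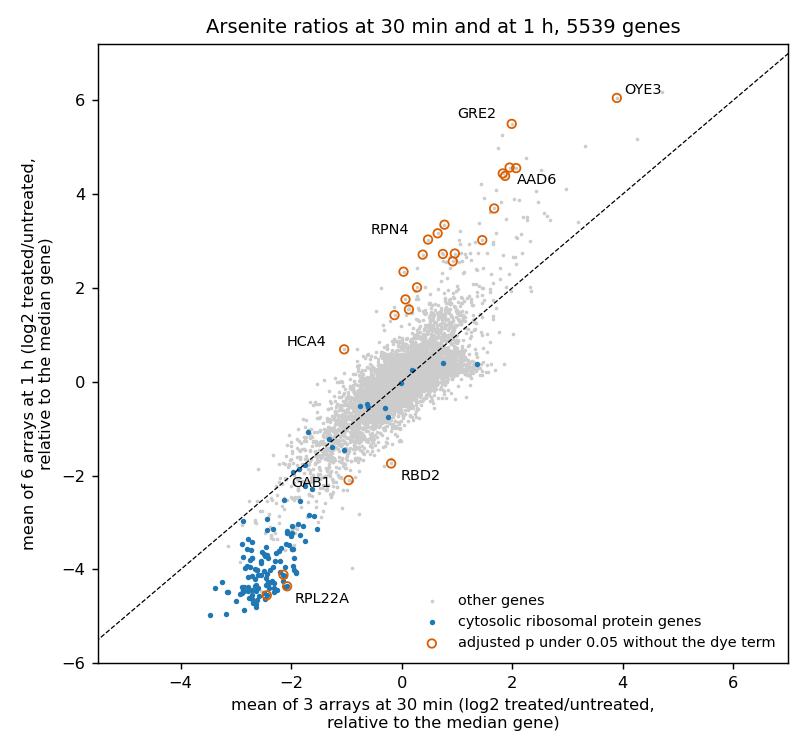
Mean log2 ratio of each of 5539 genes over the 3 arrays at 30 min (horizontal) and the 6 arrays at 1 h (vertical), both relative to the median gene, with the dashed line where both are equal. Orange rings mark the 26 genes called in the fit without the dye term, and blue points the 133 cytosolic ribosomal protein genes. Most blue points lie below the line, but their mean at 30 min includes replicate 1. The median of these genes was -0.47 on that array, against -3.32 and -3.46 on replicates 2 and 3.

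The oxidoreductase gene GRE2 (YOL151W), which encodes an NADPH-dependent methylglyoxal reductase, had the largest difference of all. Its log2 ratio was 1.18, 2.24 and 2.55 on the 3 arrays at 30 min and ran from 5.06 over a median of 5.53 to 5.83 at 1 h. All 6 arrays at 1 h thus stood above the highest at 30 min by at least 2.51, and the difference was 3.39 ± 0.84 (10.5-fold, 95% interval 1.61 to 5.17, limma adjusted p = 0.348). In the fit without the dye term it was called, at 3.51 ± 0.70 with an adjusted p of 0.038. OYE3 (YPL171C), an old yellow enzyme that reduces unsaturated carbonyl compounds, was already at 3.26, 4.04 and 4.38 at 30 min, and reached 5.23 to 7.26 at 1 h with a median of 5.98. The OYE3 arrays did not overlap, and the difference was 1.66 ± 0.42. YML131W, annotated as an oxidoreductase, was at 1.62, 2.12 and 2.47 at 30 min. At 1 h it lay between 4.75 and 4.97 on 5 arrays and at 3.11 on replicate 2, all above the 30 min arrays (difference 2.24 ± 0.46). OYE2, the paralog of OYE3, stood 1.16 ± 0.48 higher, from 1.37, 0.44 and 0.16 to between 1.46 and 2.85. Over the 16 measured genes of the old yellow enzyme and oxidoreductase list, 5 had all 1 h arrays above and 0 below (against 4.10% and 1.79% of all genes). The median difference was 0.45 against -0.06 for all genes, and turned to -0.30 when arrays were not centred.

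The aryl-alcohol dehydrogenase genes, a subtelomeric family whose members are known to respond to oxidative stress, shared one pattern. Of 7 listed genes 6 were measured, and all 6 (AAD3, AAD4, AAD6, AAD10, AAD14 and AAD15) had every array at 1 h above every array at 30 min. AAD6 (YFL056C) stood at 1.33, 2.49 and 2.04 at 30 min and between 3.80 and 5.26 at 1 h (median 4.63), a difference of 2.44 ± 0.51. AAD3 (YCR107W) went from 1.95, 2.05 and 1.62 to between 3.09 and 5.51 (2.02 ± 0.46). AAD15 (YOL165C) was at 2.71, 2.67 and 0.11 at 30 min and at 3.57 to 5.01 at 1 h, and its difference of 2.16 ± 0.56 was 1.30 without 30 min replicate 3. Among the others, AAD14 differed by 1.98, AAD4 by 1.53 and AAD10 by 1.49. The list's median difference was 2.00, the largest of the 47 lists, and remained positive without centring at 1.25. Spotted probes of this family can bind near-identical copies, so the member behind a signal is uncertain.

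Some thiol peroxidase and repair genes had arrays apart and higher, though 0 of them passed the test over all genes with the dye term. TSA2 (YDR453C), a stress-inducible peroxiredoxin, had 0.69, 0.86 and 0.69 at 30 min, and 1.97 to 3.39 at 1 h with a median of 2.84. No array overlapped, and the difference was 1.68 ± 0.40 (3.20-fold). MXR1 (YER042W), which reduces oxidised methionine in proteins, went from 1.55, 1.31 and 1.51 to between 2.53 and 3.54 (1.50 ± 0.40). TSA1, the main cytosolic peroxiredoxin, stood 1.22 ± 0.45 higher, TRX2, a cytosolic thioredoxin, 0.81 ± 0.35, and SOD2, the mitochondrial superoxide dismutase, 1.13 ± 0.37. In each of these 3 genes the arrays at 1 h lay above those at 30 min, in TRX2 by a gap of only 0.09. The catalase gene CTT1 overlapped instead, with 1.33, 3.16 and 3.57 at 30 min and 2.41 to 4.58 at 1 h (0.50 ± 0.67). The sign of the CTT1 difference turned to -0.25 without centring and to -0.18 without 30 min replicate 1. Of the 11 thioredoxin and peroxiredoxin genes 4 had arrays apart and higher (median difference 0.67, -0.07 without centring). So had 3 of the 13 genes for superoxide, peroxide and methionine sulfoxide defence (median 0.09, -0.66 without centring), and 4.10% of all genes.

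**Figure D2:**
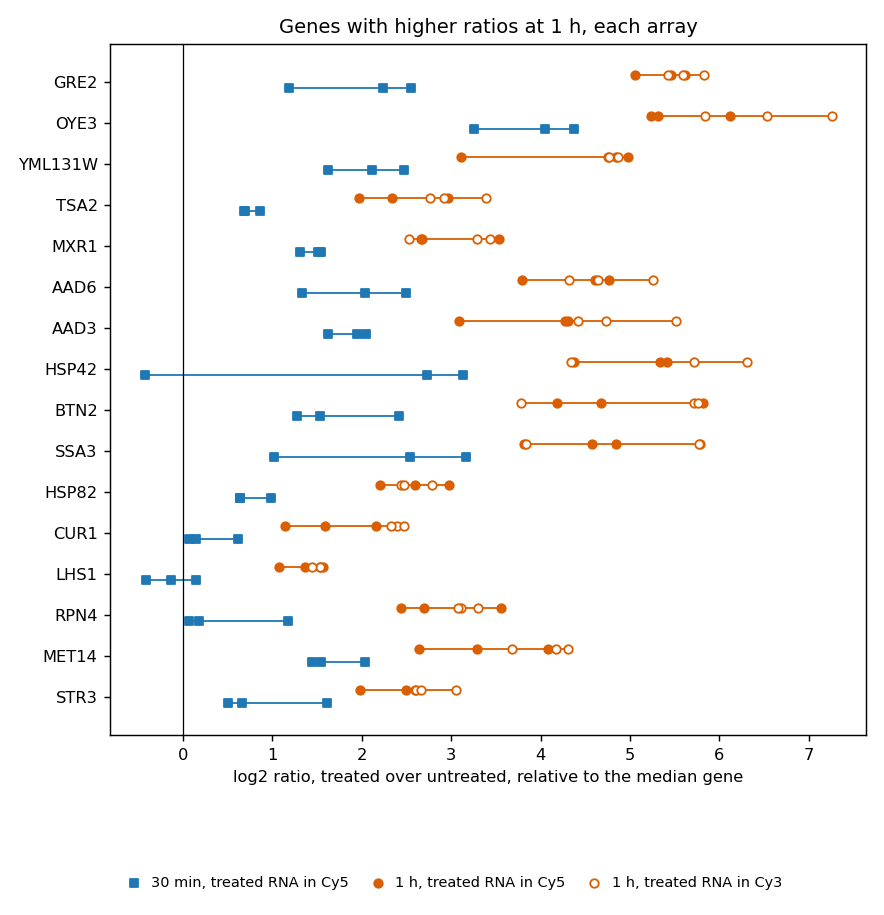
Log2 ratio of treated over untreated RNA on each array, relative to the median gene, for 16 genes with higher ratios at 1 h. Blue squares are the 3 arrays at 30 min, circles the 6 at 1 h (filled where treated RNA was in Cy5, open where in Cy3), and lines span each group. No gene shown has overlapping groups, and YML131W on 1 h replicate 2 lies at 3.11, apart from the other arrays at 1 h.

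Among regulators of stress genes YAP1, the transcription factor that senses oxidants, stood at 0.98, 0.80 and 0.75 at 30 min and between 0.65 and 1.40 at 1 h. These ranges overlapped, and the difference was 0.15 ± 0.34 (-0.60 without centring). STB5, an activator of NADPH-producing genes, went from 1.00, 0.40 and 0.15 to between 1.40 and 2.71 with no overlap (1.26 ± 0.42). The list of 17 Yap family and other stress transcription factors had 2 members with arrays apart and higher, STB5 and RPN4, and 1 lower (4.10% and 1.79% of all genes). Its median difference was 0.21 (-0.53 without centring).

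Among chaperone genes some had higher ratios at 1 h on every array and others overlapped between the times. HSP42 (YDR171W), a small heat shock protein that gathers misfolded proteins into deposits, was at -0.43, 3.13 and 2.73 at 30 min and between 4.34 and 6.31 at 1 h, with a median of 5.38. BTN2 (YGR142W), a sorting factor for misfolded proteins, was at 2.42, 1.54 and 1.28 and then between 3.79 and 5.81. Neither gene had overlapping arrays, and the differences were 3.23 ± 0.96 for HSP42 (2.11 without 30 min replicate 1) and 3.15 ± 0.95 for BTN2. CUR1 (YPR158W), the paralog of BTN2, lay near the median gene at 30 min (0.07, 0.62 and 0.14) and at 1.14 to 2.47 at 1 h (1.35 ± 0.38). By contrast HSP26, another small heat shock protein gene, had 2.14, 5.85 and 6.13 at 30 min and 5.16 to 6.92 at 1 h. Its groups overlapped, and the difference of 1.16 ± 0.78 turned to -0.13 without 30 min replicate 1. HSP12, which encodes a membrane-stabilising stress protein, was at 3.73, 4.41 and 4.62 and then at 4.42 to 6.06 (0.63 ± 0.46, -0.12 without centring, and 0.36 without 1 h replicate 5). The disaggregase gene HSP104 was at 2.52, 0.57 and 0.99 and then at 0.91 to 2.63. That difference, 0.35 ± 0.63, turned to -0.40 without centring. In the list of 7 small heat shock and sorting genes, 4 had arrays apart and higher and 0 lower (4.10% and 1.79% of all genes). The list's median difference was 1.17 (0.42 without centring).

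Among Hsp70 genes, SSA3 (YBL075C), a stress-induced cytosolic form, went from 1.02, 2.54 and 3.17 at 30 min to between 3.82 and 5.79 at 1 h (2.17 ± 0.63). SSA4 (YER103W), its close relative, went from 3.47, 3.32 and 3.17 to between 3.77 and 6.43 (1.38 ± 0.64). The arrays were apart in both genes, by 0.65 and by 0.30, though probes may not tell these copies apart. HSP82 (YPL240C), the inducible Hsp90, was at 0.64, 0.98 and 0.64 at 30 min and at 2.21 to 2.98 at 1 h. Its groups lay 1.23 apart, and the difference was 1.84 ± 0.51. CPR6, an Hsp90 co-chaperone, stood 1.36 ± 0.58 higher, with arrays 1.03 apart. Arrays were apart and higher for 6 of 20 Hsp70, Hsp40 and exchange factor genes and for 4 of 13 Hsp90 and co-chaperone genes (4.10% of all genes). They were lower for 0 of either list (1.79%). The lists' median differences were 0.51 and 0.53, and turned to -0.24 and -0.22 without centring.

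Genes of folding in the endoplasmic reticulum had no common direction. LHS1 (YKL073W), an Hsp70 of that compartment, went from -0.13, -0.41 and 0.15 to between 1.08 and 1.57 at 1 h, a difference of 1.47 ± 0.35 with no overlap. ERO1 (YML130C), the oxidase that drives disulfide formation there, went from 1.39, 0.45 and 0.33 to between 2.18 and 3.69 (1.72 ± 0.66). Both were the only ones of 13 measured list members with arrays apart. Of those members 9 had a negative difference, as had 3132 of all 5539 genes, and the list's median difference was -0.26.

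RPN4 (YDL020C), the transcription factor of proteasome genes, stood higher at 1 h on every array. The proteasome subunit genes it is known to activate had a median difference of 0.03. That median was 0.28 without 30 min replicate 1, and 0.23 in the fit without the dye term. The RPN4 ratio was 1.18, 0.07 and 0.18 at 30 min and 2.44 to 3.55 at 1 h, with a median of 3.10. No arrays overlapped, the difference was 2.42 ± 0.54 (5.36-fold, 95% interval 1.27 to 3.58), and the fit without the dye term called it at 2.56 ± 0.46 (adjusted p = 0.032). The 35 measured subunits of the 26S proteasome had medians of 1.05, 0.42 and 0.77 on the 30 min arrays and of 0.82 to 1.61 at 1 h. Without centring the median difference of the subunits was -0.72. With it, 19 members lay above 0 and 16 below (2407 and 3132 of all genes), and 3 had arrays apart and higher (4.10% of all genes had). Without 30 min replicate 1, 12 members were apart and higher and 1 lower, against 833 and 715 of all 5539 genes. RPT5, a regulatory ATPase subunit, differed by 0.75 ± 0.40, and PRE9, a core alpha subunit, by -0.97 ± 0.37, the largest differences in size within the list.

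The sulfate assimilation pathway makes the sulfide used for methionine, cysteine and glutathione, and 4 of its 10 measured genes had higher ratios on every array at 1 h. MET14 (YKL001C), the adenylylsulfate kinase, was at 2.04, 1.44 and 1.54 at 30 min and at 2.64 to 4.31 at 1 h with a median of 3.88. Its arrays were 0.60 apart and the difference was 1.66 ± 0.42. MET3, the ATP sulfurylase that precedes it in the pathway, went from 2.28, 2.53 and 2.50 to between 3.28 and 4.67 (1.32 ± 0.48). The next enzyme, encoded by MET16, stood 1.17 ± 0.45 higher, and MET10, a sulfite reductase subunit, 1.50 ± 0.58, both with arrays apart. These were the 4 genes of sulfate uptake, activation and reduction with arrays apart and higher (4.10% of all genes were). Apart and lower was MET1, which acts in making the siroheme cofactor of sulfite reductase, at 1.55, 1.21 and 1.01 and then at -0.14 to 0.87 (-0.97 ± 0.47). The list's median difference was 0.58 (-0.17 without centring).

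Further down the pathway, STR3 (YGL184C), the cystathionine beta-lyase, went from 1.61, 0.66 and 0.50 to between 1.98 and 3.06 (1.43 ± 0.37). MET6 (YER091C), the methionine synthase, was below the median gene on replicates 2 and 3 at 30 min (0.26, -1.04 and -0.61) and above it on every array at 1 h, at 0.78 to 2.59. Its difference was 1.79 ± 0.63 with no overlap. The 19 genes of methionine, cysteine and S-adenosylmethionine synthesis had 6 members with arrays apart and higher and 0 lower (4.10% and 1.79% of all genes). Their median difference was 0.91 (0.16 without centring). The regulators of these genes were unlike each other. MET30, which encodes the ubiquitin ligase subunit that restrains Met4, stood 1.02 ± 0.35 higher with arrays 0.37 apart, while MET32, which encodes a DNA-binding cofactor of Met4, differed by -0.48 ± 0.63 with overlapping arrays. GSH1, which encodes the first enzyme of glutathione synthesis, was at 1.65, 0.47 and 0.36 at 30 min and at 1.49 to 2.90 at 1 h. Those ranges overlapped through replicate 1 at 30 min (1.04 ± 0.43). The 11 genes of glutathione synthesis, reduction and turnover had a median difference of 0.40 (-0.34 without centring). Arrays were apart and higher for 3 of them (4.10% of all genes). Among these 3 were DUG2, a glutathione-degrading peptidase subunit, at 0.96 ± 0.51 (0.58 without 30 min replicate 1), and GLO1, a glyoxalase that uses glutathione, at 0.75 ± 0.41 (0.43 without 1 h replicate 5). The glutathione transferase gene GTT2 was lower, at 3.01, 0.65 and 0.58 and then -0.18 to 0.30 (-1.22 ± 0.50, and -0.42 without 30 min replicate 1).

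**Figure D3:**
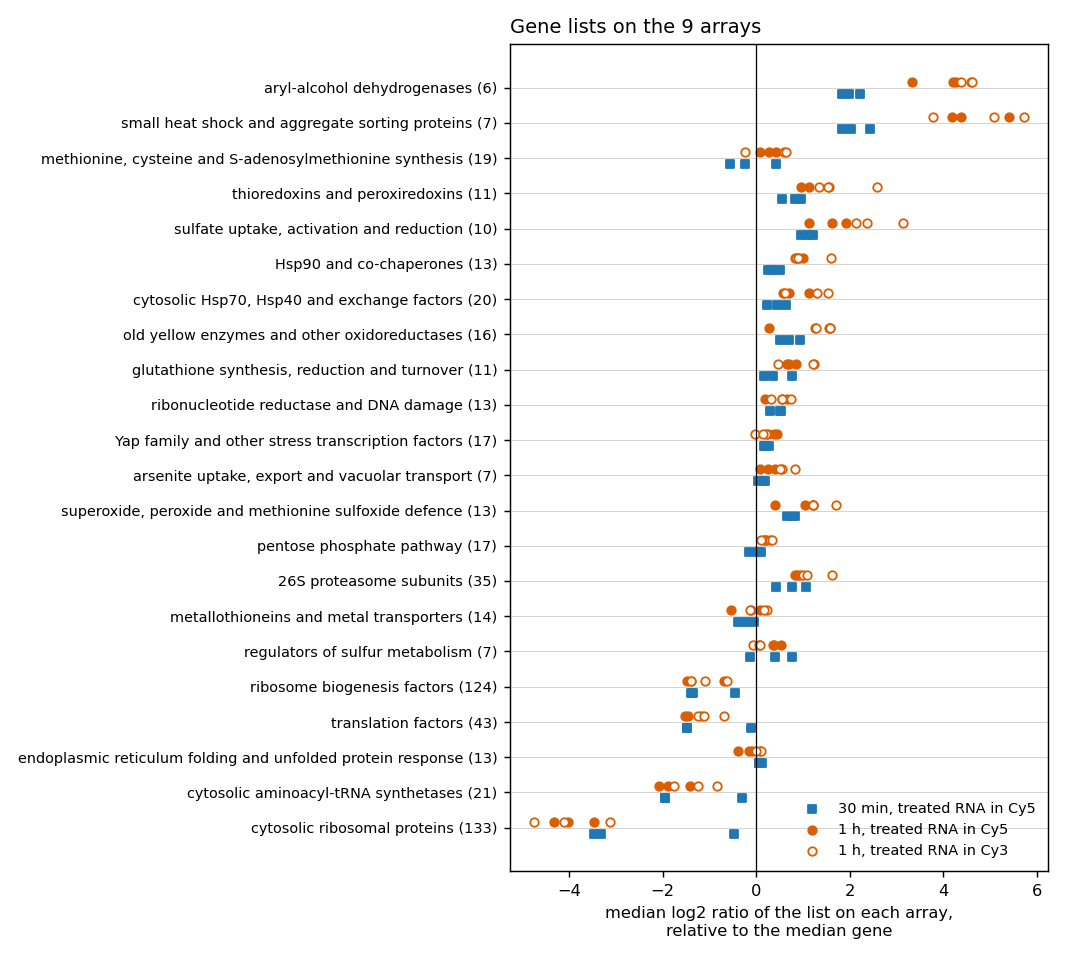
Median log2 ratio of 22 gene lists on each of the 9 arrays, relative to the median gene, with the number of measured genes in brackets. Blue squares are the arrays at 30 min, filled circles 1 h with treated RNA in Cy5, open circles 1 h with treated RNA in Cy3. The aryl-alcohol dehydrogenase and small heat shock lists lie higher at 1 h on every array, their median differences remain positive without centring (1.25 and 0.42), and 30 min replicate 1 stands apart in the ribosomal protein list at -0.47.

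Of the 7 genes of arsenite transport itself, 5 had a positive and 2 a negative difference between the times, and 0 passed the test. Over all 5539 genes, 2407 differences were positive and 3132 negative. FPS1, the glycerol channel, was at -0.12, 0.33 and 0.07 at 30 min and at -0.03 to 0.80 at 1 h, a difference of 0.02 ± 0.30 (95% interval -0.62 to 0.65). The 2 regulators of that channel were at 0.12 ± 0.35 for ASK10 and 0.50 ± 0.37 for RGC1. RGC1 was the single gene of the 7 with arrays apart, from 0.12, 0.07 and 0.04 to between 0.41 and 1.22. ARR3, the arsenite exporter gene, was at 1.56, 0.87 and 0.86 and then at 0.51 to 1.80 (0.22 ± 0.62). Its neighbour ARR2, the arsenate reductase gene, was at 3.17, 1.45 and 1.41 at 30 min and at 0.26 to 2.04 at 1 h, which is lower by a difference of -1.20 ± 0.54 with overlapping arrays (-0.62 without 30 min replicate 1). ARR1, the transcription factor of both genes, was at 0.09, -0.87 and -0.44 and then at -0.28 to 0.29. YCF1, the vacuolar conjugate pump, differed by -0.88 ± 0.42 (-0.45 without 30 min replicate 1). Without centring the differences of FPS1 (-0.73), ASK10 (-0.63), RGC1 (-0.25), ARR1 (-0.53) and ARR3 (-0.52) all turned negative, as the shift of the median gene was larger than each of them.

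The copper metallothionein genes CUP1-1 and CUP1-2 had ratios of 1.98 to 2.98 at 30 min and of 2.76 to 4.24 at 1 h. CUP1-1 overlapped (0.68 ± 0.40, -0.065 without centring) and CUP1-2 did not (1.05 ± 0.43). YHR054C, the open reading frame that lies between both CUP1 copies in assembly R64, was at 0.66, 0.65 and 0.65 at 30 min and at 1.60 to 4.04 at 1 h (2.11 ± 0.50). These 3 genes belong to one repeated stretch, so the copy behind each signal is uncertain.

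Ribosomal protein genes formed the largest block of lower ratios. All 133 listed genes were measured, and 122 had a negative difference (3132 of all 5539 genes had). The list's median was -0.47, -3.32 and -3.46 on the arrays at 30 min and ran from -4.74 to -3.12 at 1 h. On 30 min replicates 2 and 3 these genes were thus about as low as on some arrays at 1 h, and only replicate 1 was far from them. The median difference was -1.46 with all arrays (-2.21 without centring) and -0.47 without 30 min replicate 1. Arrays were apart and lower for 16 of the 133 genes (1.79% of all genes were) and apart and higher for 0 (4.10%). By limma, 59 were lower at an unadjusted p under 0.05 (2.89% of all genes). Without 30 min replicate 1, arrays were apart and lower for 19 of the 133 genes, a share near that of all genes (715 of 5539). They were then apart and higher for 3, against 833 of all 5539 genes. RPL22A (YLR061W), a protein of the large subunit, was at -1.12, -3.26 and -1.84 and then at -5.39 to -3.55, a difference of -2.32 ± 0.53 with no overlap. RPL37A went from -1.08, -2.53 and -2.81 to between -4.65 and -3.64 (-1.80 ± 0.44), and RPS18B, of the small subunit, from -1.19, -3.12 and -3.02 to between -5.40 and -3.91 (-1.93 ± 0.52). These 3 were the ribosomal protein genes called in the fit without the dye term. RPL35A, which had the largest negative difference of the list, was at -0.03, -2.95 and -2.77 and then at -4.74 to -3.11 (-2.35 ± 0.62, and -1.41 without 30 min replicate 1). RPL3 overlapped, at -0.60, -4.87 and -4.97 and then -6.35 to -3.69, and its difference of -0.92 ± 0.97 turned to 0.52 without 30 min replicate 1. Paired ribosomal protein genes are near-identical, so their probes may bind both copies.

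Ribosome assembly and translation factor genes differed less. The 124 ribosome biogenesis genes had a median difference of -0.23, 2 with arrays apart and lower (1.79% of all genes were) and 0 higher, so the count is near that over all genes, and their median turned to 0.14 without 30 min replicate 1. NOP56 and NOP58, core proteins of the nucleolar methylation complex, differed by -1.10 ± 0.44 and -1.42 ± 0.60, both with overlapping arrays, and by -0.70 and -0.68 without 30 min replicate 1. Against that direction HCA4 (YJL033W), a helicase of ribosomal RNA processing, went from -0.50, -1.48 and -1.15 at 30 min to between -0.14 and 1.30 at 1 h (1.61 ± 0.41, no overlap). The 43 translation factor genes had a median difference of -0.24 and the 21 cytosolic aminoacyl-tRNA synthetase genes one of -0.33, and both turned positive without 30 min replicate 1 (0.09 and 0.16). KRS1, the lysyl-tRNA synthetase gene, differed by -1.27 ± 0.47 (-0.79 without 30 min replicate 1).

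Several single genes outside these lists were lower at 1 h. GAB1 (YLR459W), a subunit of the complex that attaches lipid anchors to surface proteins, was at -0.66, -1.12 and -1.10 and then at -2.46 to -1.82. RBD2 (YPL246C), a rhomboid-like membrane protein gene, was at -0.34, 0.44 and -0.68 and then at -2.08 to -1.20. Both had arrays apart, with differences of -1.23 ± 0.28 and -1.55 ± 0.34, and both were called in the fit without the dye term. FSH1 (YHR049W), a putative serine hydrolase gene, lay above the median gene on every array at 30 min. At 1 h it lay below the median gene on every array but replicate 1. It was at 1.07, 1.31 and 1.11 at 30 min and at -0.80 to 0.02 at 1 h, 1.04 apart (-1.55 ± 0.41). TIP1, a cell wall mannoprotein gene, was at 1.42, 1.15 and 1.28 and then at -0.59 to 1.26. Of its arrays at 1 h the 3 with treated RNA in Cy3 were the higher ones (1.26, 0.97 and 0.11), and the groups overlapped (-1.67 ± 0.43). FET3, the multicopper oxidase gene of iron uptake, had the lowest difference of all at -2.91 ± 0.90, but its arrays at 30 min spread from -3.13 to 0.85 and overlapped those at 1 h (-4.95 to -2.77).

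**Figure D4:**
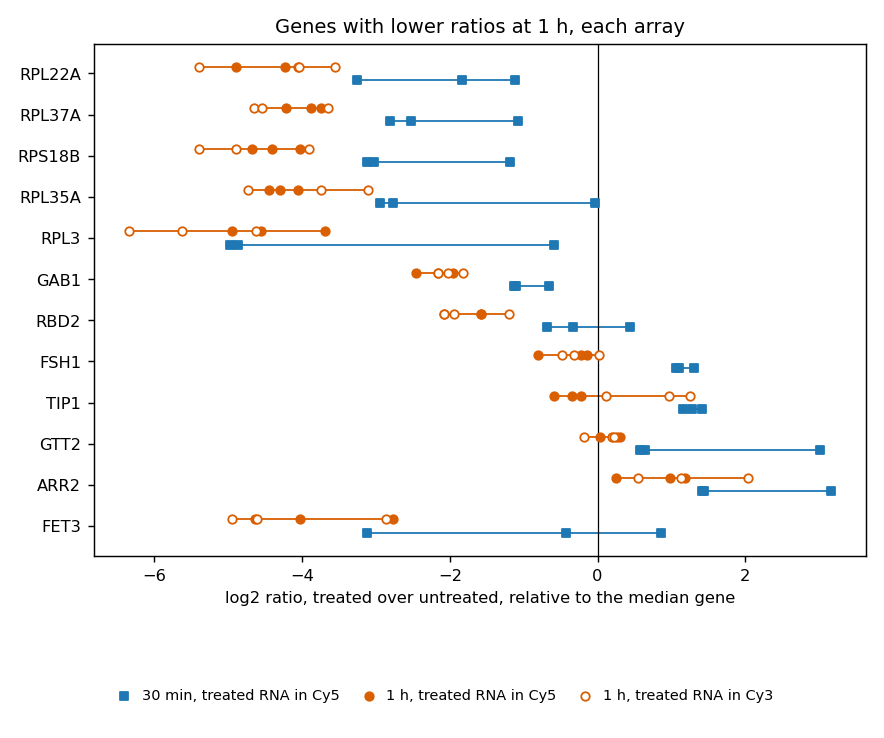
Log2 ratio of treated over untreated RNA on each array, relative to the median gene, for 12 genes with lower ratios at 1 h, drawn with the same symbols as the genes with higher ratios. RPL3, TIP1, ARR2 and FET3 overlap between the times, the other 8 do not, and 30 min replicate 1 holds the highest value of every ribosomal protein gene shown.

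Other genes stood near the median gene at 30 min and well above it at 1 h. SPC34 (YKR037C), a subunit of a kinetochore complex, was at -0.27, 0.06 and 0.30 and then at 1.39 to 3.02 (1.83 ± 0.37). SSN2 (YDR443C), a Mediator subunit gene, was at 0.52, 0.26 and 0.36 and then at 1.57 to 3.58 (1.65 ± 0.42). In both genes the highest values at 1 h came with treated RNA in Cy3. For SSN2 the Cy3 arrays stood at 3.54, 3.58 and 3.06 and the Cy5 arrays at 1.57, 2.19 and 2.33. REX3, an RNA exonuclease gene, differed by 1.33 ± 0.34, and ATG41, which acts in autophagy, by 1.49 ± 0.42. ALD4, the mitochondrial aldehyde dehydrogenase gene, went from 0.93, 0.67 and 1.28 to between 2.00 and 3.31 (1.71 ± 0.45). Of 13 measured genes of ribonucleotide reductase and DNA damage, 4 had arrays apart and higher (4.10% of all genes had). They included the small subunits of ribonucleotide reductase, RNR2 (1.39 ± 0.68) and RNR4 (1.43 ± 0.60, and 0.92 without 1 h replicate 5), while the list's median difference was 0.31 (-0.44 without centring). Of 17 pentose phosphate genes 2 had arrays apart and higher (4.10% of all genes had). These were the transaldolase NQM1 (1.54 ± 0.55) and the transketolase TKL2 (1.45 ± 0.57, and 0.95 without 1 h replicate 5), both the minor paralogs of their enzymes. The list's median difference was 0.06.

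Some genes with higher ratios at 1 h were neighbours on the chromosome. The order of protein-coding genes in assembly R64 gave 5095 adjacent pairs with both genes measured. Genes adjacent to any of the 227 with arrays apart and higher were themselves in that group in 30 of 410 cases (7.32%, against 4.10% of all genes). For the 99 genes with arrays apart and lower it was 4 of 186 (2.15% against 1.79%). The first group held 15 such pairs, of which 10 were read in the same direction, 3 apart from each other and 2 towards each other, and over all pairs 2457 of 5095 were read in the same direction. OSI1, a gene induced by oxidative stress, and YKL070W, an uncharacterised gene next to it, were at 2.66 ± 0.82 and 2.44 ± 0.65. YKL070W went from 0.02, 0.97 and 1.33 to between 2.26 and 4.03. SPC34 lay beside CAF4, a mitochondrial fission adaptor gene, which stood 2.54 ± 1.00 higher. SSA4 lay beside RTT105 (1.79 ± 0.68, and 1.12 without 1 h replicate 5), and YML131W beside ERO1. STB5 lay beside OYE2, and GRE2 beside DCP1, a decapping enzyme subunit gene (0.77 ± 0.33). The ratios do not tell strands apart, and 0 of the 15 pairs overlap in the annotation.

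The 26 genes called without the dye term had the same sign of difference with it, but both fits use the same arrays at 30 min and share 3 at 1 h, so this is a description and no support. For RPL22A the difference was -2.32 ± 0.53 with the term and -2.28 ± 0.45 without it, and for OYE3 1.66 ± 0.42 and 2.16 ± 0.41. Among the 26 the fits were farthest apart for SSN2, at 1.65 ± 0.42 and 2.33 ± 0.46. The dye effect itself passed in 0 of 5539 genes. Its median of -0.05 lay near 0 because each array had been centred. As deposited, the median gene at 1 h was at -1.22, -1.35 and -0.69 with treated RNA in Cy5. With treated RNA in Cy3 it was at -0.28, 0.22 and 0.02. The calls without the dye term rested on single arrays. They numbered 0 in both directions without 1 h replicate 3, 5 or 6 or 30 min replicate 1, 0 higher and 1 lower without 30 min replicate 2, and 2 and 4 without 30 min replicate 3. They were 6 and 4 without 1 h replicate 1, 34 and 5 without replicate 2, and 8 and 0 without replicate 4. With the dye term, GRE2 passed when the 9 arrays at both times were fitted alone (adjusted p = 0.0052), and YML131W passed without 1 h replicate 2 (adjusted p = 0.026).

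**Figure D5:**
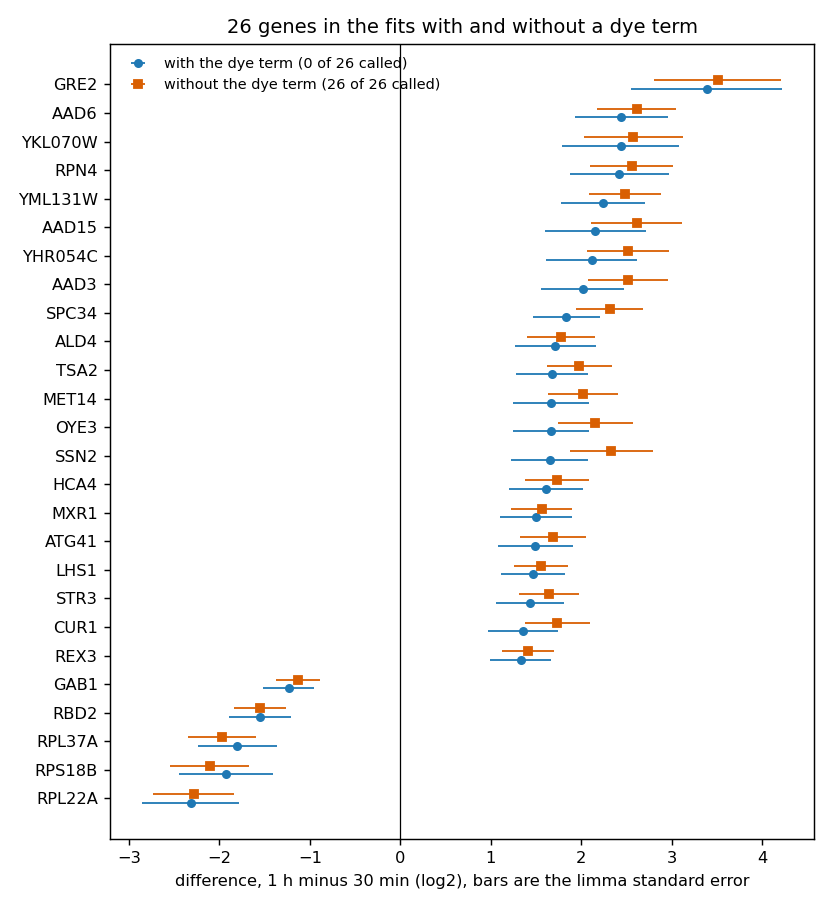
Difference of log2 ratios, 1 h minus 30 min, for the 26 genes called in limma without a dye term, in the fit with the dye term (blue circles) and without it (orange squares), with bars of 1 standard error. All 26 differences keep their sign between the fits, 21 above 0 and 5 below, but the fits share arrays and the genes were chosen on them.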

How the data were processed

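Two-colour spotted arrays measured treated against untreated wild-type yeast. Groups, replicate numbers and dyes came from the sample titles and dye labels. The authors deposited 1 log2 ratio per spot and array for 13056 spots, without missing values. The sources used here do not give background correction or normalisation. The ratios of 10 arrays were those of whole numbers (relative tolerance 5e-14), and 30, 5 and 23 zeros with a minus sign on the Cy3 arrays show that their signs had been turned, so all ratios were likely treated over untreated. The brightness of a gene was rebuilt from the whole numbers of those 10 arrays. The values of 30 min replicate 1 were not such ratios, and its log2 scale was taken from the others. Signal over background is unknown, so precision is limited by how many arrays there were.

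Spots with 1 gene name in the platform annotation (11138 of 13056; 0 had several and 1918 none) were averaged per gene, giving 5539 genes with no filter on low values, and 11128 of those spots matched assembly R64, used for names and neighbours. Each array was centred on its gene median. All 15 arrays were fitted with limma 3.58.1 (lmFit, eBayes) in R 4.3.3, with time point means plus a dye effect for each gene (10 residual degrees of freedom, prior 5.41), and tested by the contrast 1 h minus 30 min. Calls needed a two-sided adjusted p under 0.05 (Benjamini-Hochberg over 5539 genes). The code of the fits was checked on simulated arrays with known differences. These had independent noise, no dye effect and no array like 30 min replicate 1. They therefore do not show how well the fits work on the real arrays.

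The arrays compared, the 47 gene lists and the tests were chosen with earlier results of these data known, and no list was tested. The text names any gene called, up to 2 uncalled members of a list with the largest difference in size, a fixed set (HSP26, OYE3, GRE2, SSA4, BTN2, HSP12, MET3, MET14, GSH1, RPN4, YAP1, CUP1-1, RPL3) and the 7 arsenite transport genes. Genes called without the dye term, and AAD4, AAD10, AAD14, CAF4, CTT1, DCP1, FSH1, GLO1, HSP104, MET1, MET16, NOP56, OSI1, OYE2, RTT105, SNQ2, TIP1 and TRX2, were added after their values were seen. Alternatives were no centring, equal spread, removal of the brightness trend, dim genes left out, no dye term, Cy5 arrays alone, the 9 arrays alone, a replicate block, the first spot of a gene, and each array left out in turn.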

Additional observations from a re-analysis of the deposited data

Results flagged for a closer look

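In groups of 6, a sample was singled out by its gap to the nearest other, divided by the group's range. This ratio had to be above Dixon's critical value of 0.625, which chance reaches in about 1 of 20 groups. All 86 named genes and the medians of 27 lists were screened, so several such samples are expected by chance. The lists also share arrays and members with the genes. On 1 h replicate 2, YML131W was the lowest at 3.11 (ratio 0.882), as were the median of the aryl-alcohol dehydrogenase list at 3.33 and that of the old yellow enzyme and oxidoreductase list at 0.26. On 1 h replicate 1, with treated RNA in Cy3, the proteasome subunit RPT5 was the highest at 2.66, as were ARR1 at 0.29, the median of the Hsp90 and co-chaperone list at 1.60 and that of the 26S proteasome list at 1.61.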

How the results depend on the processing

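With the dye term, the counts of genes higher and lower at 1 h were both 0 and remained so under every alternative of the same fit, except 1 higher (GRE2) with the 9 arrays at 30 min and 1 h alone and 0 to 1 higher and 0 lower when each array was left out in turn (the 1 was YML131W). Dropping the dye term gave 21 higher and 5 lower. Set against that fit, and chosen after seeing the data, the counts were 37 and 9 with the 9 arrays alone, 2 and 1 without centring, 0 and 0 with arrays scaled to equal spread and 66 and 114 with the brightness trend removed, and 0 to 34 higher and 0 to 5 lower when each array was left out. Of the 26 genes, 26 were still called with the 9 arrays alone and with the brightness trend removed, 1 without centring and 0 with equal spread. The count of genes with all 1 h arrays above fell from 227 to 15 without centring and ran from 244 to 833 when each array was left out, 833 being without 30 min replicate 1. The count below rose from 99 to 293 with equal spread, 338 with Cy5 arrays alone and 235 with the brightness trend removed, and ran from 111 to 715 with each array left out.

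The labels do not say whether replicate numbers pair the samples. Deviations of same-numbered arrays from their group means correlated at 0.58, -0.24 and 0.07 across genes. The 0.58, for replicate 1, was the highest of all combinations of a 30 min and a 1 h array. Deviations within a group sum to 0 for each gene, and 30 min replicate 1 stands apart. These values therefore cannot decide whether the samples are paired. A replicate block gave 0 higher and 0 lower, with CTT1 at -0.92, ARR3 at -1.33 and ASK10 at -0.24, each reversed. Of 86 named genes it moved 41 by over 1.5 times, 34 to smaller or reversed values, among them YML131W (0.76), AAD3 (0.80), AAD10 (0.45), YKL070W (0.54), OSI1 (0.50) and NOP58 (-0.11).

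With the dye term, the difference of a gene uses only the arrays at 30 min and the Cy5 arrays at 1 h. Its sign therefore could not change when other arrays at 1 h, other time points or dim genes were left out. Such values are counted here as kept, so the count overstates how stable the directions are. Over 86 named genes, 1492 of 1544 values kept direction and side of the threshold, 28 passed it in addition (26 of them without the dye term) and 24, in 12 genes, changed sign. Without centring these were CTT1 (-0.25), YAP1 (-0.60), HSP12 (-0.12), HSP104 (-0.40), ARR1 (-0.53), ARR3 (-0.52), FPS1 (-0.73), ASK10 (-0.63), RGC1 (-0.25) and CUP1-1 (-0.065), by construction through the shift of the median gene. ARR3 was at -0.18 with equal spread. With each array left out, the range was -0.18 to 0.94 for CTT1, -0.13 to 1.87 for HSP26, -0.12 to 0.93 for HSP104, -0.016 to 0.46 for ARR1, -0.015 to 0.63 for ARR3, -0.090 to 0.13 for FPS1, -0.0017 to 0.22 for ASK10 and -1.67 to 0.52 for RPL3. Leaving out 30 min replicate 1 moved 18 of the 86 by over 1.5 times, more than any other array. Apart from centring, the cause of these changes was not tested. Of 486 values of list medians, some of which could not move, as above, 443 moved by less than the spread between replicates. That spread was the larger standard deviation of a list's medians, over the arrays at 30 min or the Cy5 arrays at 1 h. It is widened by 30 min replicate 1, as in the ribosomal protein list (-0.47 against -3.32 and -3.46). There a move from -1.46 to -0.47 still counted as within the spread, so the count does not show that list medians are stable. The rebuilt brightness is not signal over background, so how precisely faint genes were measured is not known. The 3 arrays at 30 min, of which replicate 1 stands apart, set the limit of every difference.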

Other observations

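Several gene groups not described above had small differences between 1 h and 30 min. The 68 mitochondrial ribosomal protein genes, which encode the translation machinery inside mitochondria, had a median difference of -0.08. The 133 cytosolic ribosomal protein genes had -1.46 (-0.47 without 30 min replicate 1). Of the 68, 2 members were apart and higher and 4 apart and lower (4.10% and 1.79% of all genes). Of 21 genes of high-affinity iron uptake, 19 had a negative difference (3132 of all 5539 genes had) and 0 had arrays apart. Their median of -0.51 was -0.10 without 30 min replicate 1. Of 16 multidrug efflux genes, 2 had arrays apart and higher (4.10% of all genes had), by narrow gaps of 0.04 and 0.06. They were FLR1, a plasma membrane transporter gene, at 0.63, 1.24 and 1.51 at 30 min and 1.55 to 3.35 at 1 h (1.01 ± 0.47), and SNQ2, a drug efflux pump gene, at -0.25, -0.60 and -1.46 and then -0.20 to 0.59 (0.93 ± 0.50, and 0.59 without 30 min replicate 3). SNQ2 thus lay below the median gene on every array at 30 min. The 20 hydrophilin and stationary phase genes had a median difference of 0.49, which turned to -0.26 without centring, with 2 members apart and higher (4.10% of all genes). The 11 histone genes had a median difference of -0.16, which turned to 0.46 without 30 min replicate 1.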
